A study of Mus musculus with 6 samples.

Results

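The genes described here handle ATP, adenosine and pyrophosphate outside the cell. They are Ank, Enpp1, Enpp3, Alpl, Slc20a1, Slc20a2, Entpd1, Nt5e and Adora2b, 9 of the 48820 Ensembl genes in the count table, each found by its GENCODE symbol. The set was chosen by the strong fall of the Ank and Nt5e counts in the knockout libraries, so the difference of those 2 genes is described here and not tested. Expression was measured by RNA-seq in spheroids of 4T1 cells, a line from a mouse mammary tumour that the labels class as triple-negative breast cancer, in 3 libraries labelled LATS1/2 double-knockout (dKO 1 to dKO 3) and 3 libraries labelled WT (WT 1 to WT 3). All were grown as spheroids in RPMI medium with serum and antibiotics, and no drug or other agent is named in the labels. LATS1 and LATS2 are Hippo pathway kinases, which phosphorylate YAP and TAZ and so hold these coactivators back. The labels do not say how the knockout was made, whether the dKO line is a single clone, or whether the libraries called biological replicates came from separate cultures, so the p-values below measure the spread between these libraries.

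Cells release ATP, which surface enzymes cut either to AMP and pyrophosphate (ENPP1 and its relative ENPP3) or stepwise to AMP (the ENTPD family, of which ENTPD1 is CD39). NT5E, also called CD73, turns that AMP into adenosine, which signals through receptors such as ADORA2B and dampens immune responses in many tumours. ANK, called ANKH in human, is a membrane protein needed for the release of ATP, pyrophosphate and citrate. Pyrophosphate inhibits the growth of calcium phosphate crystals, ALPL (tissue-nonspecific alkaline phosphatase) breaks it down to phosphate, and SLC20A1 and SLC20A2 carry phosphate into cells with sodium.

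Library totals ran from 38194478 to 49630116 counts. Levels are given as CPM (counts per 1000000 counts of the library, with TMM scaling), with the mean ± SD of 3 libraries, and differences as the log2 fold change, dKO minus WT, ± SE. A floor of 12 counts per library (0.243 to 0.314 CPM), set after the values were seen, marks levels too low to be set apart from 0. It stands for 3 read pairs on the assumption of 4 counts per pair, since the counting step is not named. In each library 678 to 775 genes had 4 counts and 273 to 367 had 5, but 1734 to 1980 genes had 1 to 3 counts, so the counts are not all in steps of 4. Lats1 was lower in the dKO libraries, at 50.8 ± 2.55 CPM against 153 ± 6.36 CPM in WT, and Lats2 was higher, at 77.8 ± 12.5 CPM against 27.2 ± 4.01 CPM in WT. Lats2 thus does not check the label, and all directions below are between libraries as labelled. All 7 markers of mammary epithelium and 4T1 identity were above the floor in every library, and their summed level was 4024 to 4568 CPM in dKO libraries and 5391 to 5492 CPM in WT libraries. Of these markers 2 were called higher, Cdh1 and Cldn3, and 4 lower, Epcam, Krt8, Krt18 and Cldn7. WT 2 and dKO 3 lay apart from the others of their group on the second principal component (6.20% of the variance).

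Only 4 of the 9 genes were well expressed in these cells, and all 4 were lower in the dKO libraries: Ank, Nt5e, Slc20a1 and Slc20a2. Enpp1, Alpl and Adora2b were near the floor in WT, Entpd1 was under the floor in all libraries, and Enpp3 had 0 counts in all libraries, which allows up to 0.314 CPM in the shallowest. Of the 9 genes, 7 passed the count filter and were tested, 6 of them were called lower at a Benjamini-Hochberg adjusted p under 0.05 and none was called higher. Among all 15807 tested genes, 28.7% were called lower and 28.6% higher, 57.3% in all. In 6 of the 7 no dKO value lay within or above the WT range, and over all tested genes groups stood apart like this for 33.0% in the lower and 32.7% in the higher direction, 65.6% in all. Enpp1 and Alpl passed the filter only through their WT libraries, and Ank and Nt5e were picked for their fall, so these counts say nothing about the set. The median log2 fold change of all tested genes was -0.01.

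**Figure D1:**
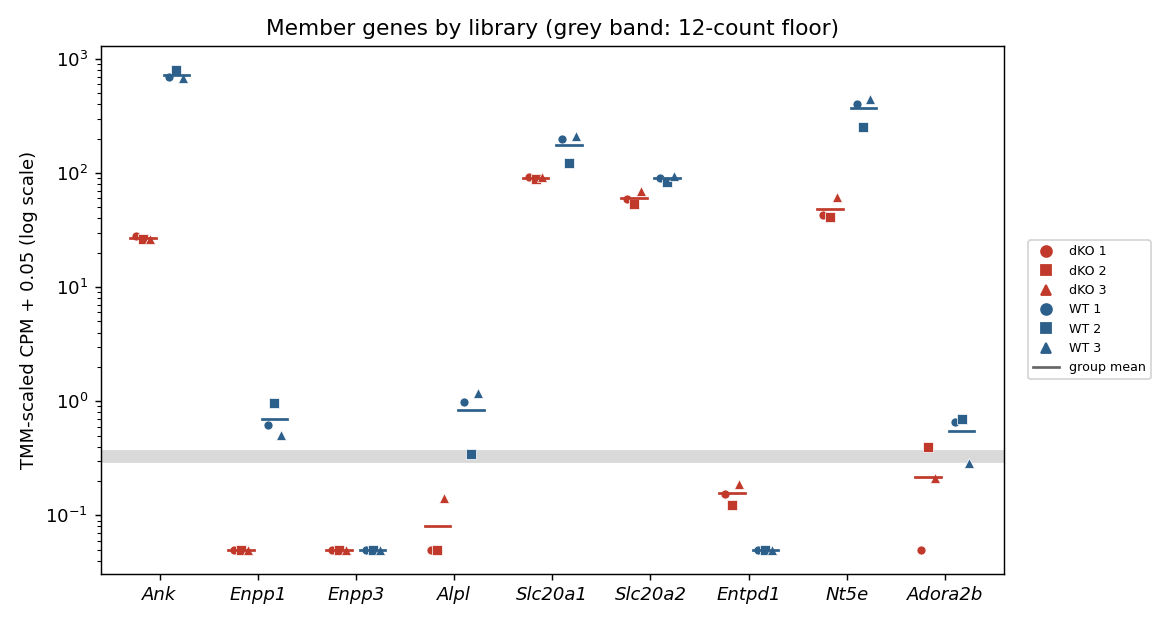
Level of the 9 genes in each library, as TMM-scaled CPM plus 0.05 on a log axis, with dKO libraries in red on the left of each pair and WT libraries in blue on the right; bars are group means and the grey band is the 12-count floor. Ank stands at 26.2 to 28.0 CPM in dKO libraries and 676 to 802 CPM in WT libraries, while Enpp1, Enpp3, Alpl, Entpd1 and Adora2b lie near or under the floor.

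Ank (ENSMUSG00000022265, GRCm38 chromosome 15, 27466677 to 27594909, plus strand), the gene of the pyrophosphate and ATP release protein, had 28.0, 26.5 and 26.2 CPM in dKO 1, dKO 2 and dKO 3. In WT 1, WT 2 and WT 3 it had 691, 802 and 676 CPM. The groups lay far apart, and the spread within each was small, at 26.9 ± 0.934 CPM in dKO and 723 ± 68.6 CPM in WT (SD, n = 3 each). Ank was thus 26.9-fold lower in the dKO libraries, with a log2 fold change of -4.75 ± 0.09, and 339 of the 15807 tested genes (2.14%) had a value as low or lower. Without WT 2 and dKO 3 the log2 fold change was -4.65. Exons of Ank overlap the microRNA gene Mir7117 on its own strand, and its body overlaps Otulin on the other strand without shared exon sequence.

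Nt5e (ENSMUSG00000032420, chromosome 9, 88327197 to 88372092, plus strand), which encodes the enzyme that makes adenosine from AMP, had 42.6, 41.2 and 61.9 CPM in dKO 1, dKO 2 and dKO 3. It had 405, 253 and 447 CPM in WT 1, WT 2 and WT 3. The groups did not overlap, but dKO 3 was the highest of its group and WT 2 the lowest of its group, so the pair that stood apart lay nearer to each other. Nt5e averaged 48.5 ± 11.6 CPM in dKO and 368 ± 102 CPM in WT, which is 7.59-fold lower, with a log2 fold change of -2.92 ± 0.26. That value was -3.35 without WT 2 and dKO 3, and 693 of the tested genes (4.38%) were as low or lower in the full comparison.

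The phosphate importers were lower by much less. Slc20a1 (ENSMUSG00000027397, chromosome 2, 129198764 to 129211616) had 92.2, 88.2 and 93.1 CPM in dKO 1, dKO 2 and dKO 3, against 199.8, 123 and 209.6 CPM in WT 1, WT 2 and WT 3. The dKO libraries were nearly equal, and WT 2 again stood below the other WT libraries but above all dKO libraries. Slc20a1 differed by -0.96 ± 0.18 on the log2 scale (edgeR adjusted p = 0.00216), or -1.18 without WT 2 and dKO 3. Slc20a2 (ENSMUSG00000037656, chromosome 8, 22476788 to 22569612) had 59.2, 53.8 and 70.0 CPM in dKO 1, dKO 2 and dKO 3, against 90.9, 83.6 and 94.9 CPM in WT 1, WT 2 and WT 3. Its groups did not overlap, and it differed by -0.56 ± 0.11 on the log2 scale (edgeR adjusted p = 0.00188), a 1.47-fold difference. Tested against a 1.5-fold change instead of no change, Slc20a2 was not called (edgeR adjusted p = 0.652). Exons of Slc20a1 overlap 9830144P21Rik and Gm4430, and exons of Slc20a2 overlap Smim19, all on the other strand, and the counting is not stated to use strand, so reads there cannot be assigned with certainty.

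The genes that make and break pyrophosphate at the surface were near the limit of counting. Enpp1 (ENSMUSG00000037370, chromosome 10, 24637914 to 24712159, minus strand), the gene of the enzyme that cuts ATP to AMP and pyrophosphate, had 0 counts in every dKO library and 28, 37 and 21 counts in WT 1, WT 2 and WT 3. Against the floor of 12 counts per library it was at least 2.18-fold lower (edgeR adjusted p = 0.00132). Alpl (ENSMUSG00000028766, chromosome 4, 137741733 to 137796384, minus strand), the pyrophosphate-cleaving phosphatase gene, had 0, 0 and 4 counts in dKO 1, dKO 2 and dKO 3 and 46, 12 and 53 counts in WT 1, WT 2 and WT 3. At the assumed 4 counts per read pair, that is 1 pair in dKO and 28 pairs in WT, 25.1-fold lower, with a 95% counting interval, which rests on the same assumption, of 4.15 to 1026-fold (edgeR adjusted p = 0.00672 for the gene). Its fitted log2 fold change was -4.50 with all libraries and -8.10 without dKO 3, so the size rests on those 4 counts. Enpp1 and Alpl are not tested under a filter of 1 CPM in 3 libraries.

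Entpd1 (ENSMUSG00000048120, chromosome 19), the gene of the ATP-cleaving CD39, had 4, 3 and 6 counts in dKO 1, dKO 2 and dKO 3 and 0 counts in every WT library. All of these values lie under the floor, so no difference is given. Adora2b (ENSMUSG00000018500, chromosome 11), the gene of the low-affinity adenosine receptor, had 0, 14 and 7 counts in dKO 1, dKO 2 and dKO 3 and 30, 26 and 11 counts in WT 1, WT 2 and WT 3. Its groups overlapped and it was not called, its log2 value being -1.53 ± 0.97 (edgeR adjusted p = 0.211). The other adenosine receptor genes, Adora1, Adora2a and Adora3, did not pass the count filter.

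Levels of different genes can be set side by side only per exon length. In WT libraries Ank was at 200.3 ± 19.0 CPM per kb of annotated exon, above Nt5e at 42.8 ± 11.9, Slc20a1 at 31.8 ± 8.48 and Slc20a2 at 14.4 ± 0.924 CPM per kb. Nt5e and Slc20a1 overlapped each other in WT, and the other steps of that order did not. In dKO libraries the order was Slc20a1 at 16.3 ± 0.467, Slc20a2 at 9.82 ± 1.33, Ank at 7.45 ± 0.259 and Nt5e at 5.64 ± 1.34 CPM per kb. Ank, the highest of the 9 genes in WT, was thus below both phosphate importers in dKO. The place of Ank above Nt5e in dKO depends on the length used: with the longest annotated transcript, Ank was at 7.69 and Nt5e at 12.2 CPM per kb.

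**Figure D2:**
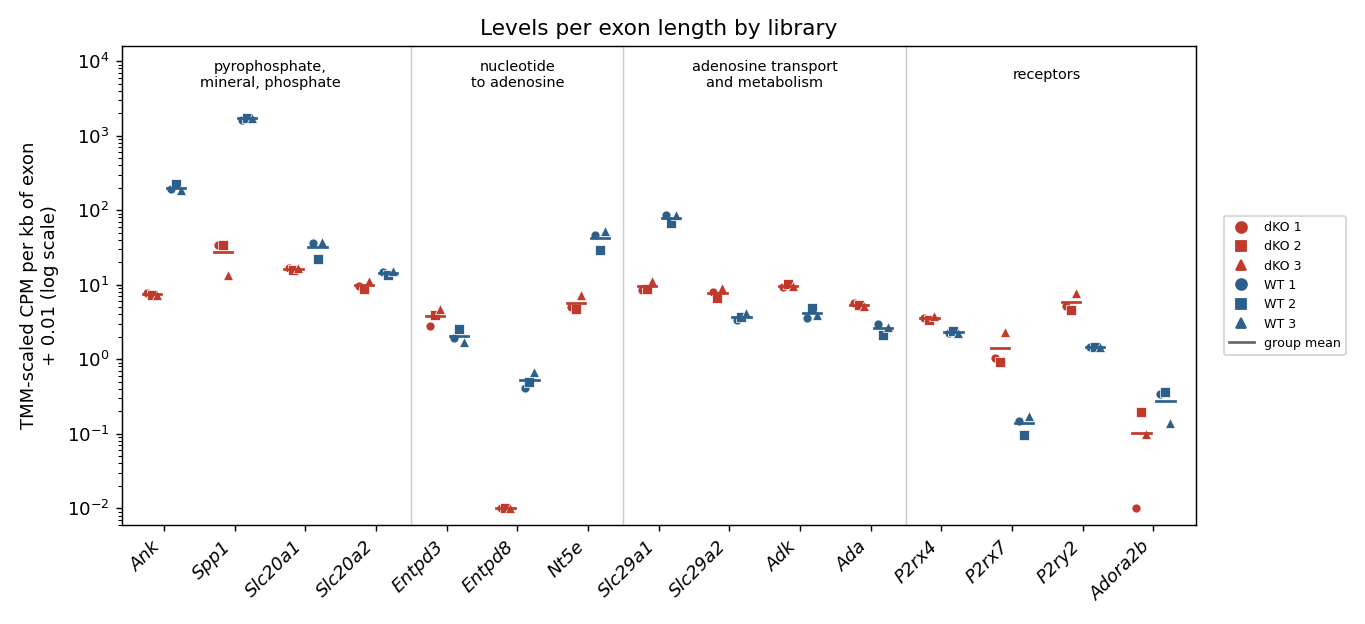
Levels per kb of annotated exon (TMM-scaled CPM per kb plus 0.01, log axis) of 15 genes ordered by role, with dKO libraries in red left of WT libraries in blue and bars for group means. Ank, Spp1, Nt5e and Slc29a1 are lower in every dKO library than in any WT library, while Slc29a2, Adk, Ada, P2rx4, P2rx7 and P2ry2 are higher.

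Of the genes called lower, Enpp1 and Alpl were near the floor and Slc20a2 had no promoter entry. For the others, Ank, Nt5e and Slc20a1, the sequences before the starts are shown. They are the 250 bases upstream of each RefSeq start on GRCm38.p6, read on the gene's strand, and they were searched on both strands for GGAATG, the core bound by TEAD factors, through which YAP and TAZ act, and for TGANTCA, the core bound by AP-1. Capitals mark matches. Of the 9 genes, 8 had an entry, and Slc20a2 had none. The windows of Nt5e, Enpp3, the second Slc20a1 start and the later starts of Alpl and Entpd1 lie inside the genes as annotated in GENCODE. The RefSeq starts used there come after the GENCODE starts. The window of the first Slc20a1 start ends just inside its gene.
Ank (chr15:27466427-27466676, plus strand): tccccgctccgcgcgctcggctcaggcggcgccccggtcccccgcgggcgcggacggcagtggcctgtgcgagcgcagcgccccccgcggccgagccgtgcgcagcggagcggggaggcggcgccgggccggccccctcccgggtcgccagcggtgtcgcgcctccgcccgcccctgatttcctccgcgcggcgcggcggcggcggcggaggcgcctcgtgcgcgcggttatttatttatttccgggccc
Nt5e (chr9:88327359-88327608, plus strand): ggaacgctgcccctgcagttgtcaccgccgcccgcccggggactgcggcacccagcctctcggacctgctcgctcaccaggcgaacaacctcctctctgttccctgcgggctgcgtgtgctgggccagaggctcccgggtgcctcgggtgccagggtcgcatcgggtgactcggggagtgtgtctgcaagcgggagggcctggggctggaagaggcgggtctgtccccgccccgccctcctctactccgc
Slc20a1, first start (chr2:129198523-129198772, plus strand): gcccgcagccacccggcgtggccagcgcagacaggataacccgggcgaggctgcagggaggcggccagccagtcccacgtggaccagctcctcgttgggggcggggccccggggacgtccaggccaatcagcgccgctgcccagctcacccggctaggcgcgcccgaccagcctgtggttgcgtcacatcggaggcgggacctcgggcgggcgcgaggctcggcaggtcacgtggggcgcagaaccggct
Slc20a1, second start (chr2:129206846-129207095, plus strand): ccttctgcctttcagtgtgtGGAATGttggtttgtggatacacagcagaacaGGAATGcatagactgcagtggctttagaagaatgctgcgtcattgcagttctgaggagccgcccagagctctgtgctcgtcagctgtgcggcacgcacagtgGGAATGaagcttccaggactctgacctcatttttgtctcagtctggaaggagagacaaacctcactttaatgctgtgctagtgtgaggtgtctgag
Ank and Nt5e held neither motif in this window, and both were rich in G and C, at 81.2% and 72.0%. The first start of Slc20a1 held neither motif, while its second start held 3 copies of GGAATG and no TGANTCA. Of the 32851 promoter windows in the table, 12.6% held GGAATG at least once, 0.0913% held at least 3 copies, and 6.75% held TGANTCA. The windows of Enpp1, Enpp3, Alpl, Entpd1 and Adora2b held neither motif. The counts do not separate the starts of Slc20a1.

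The tested genes around Ank and Enpp1 were read in the same comparison. The nearest tested neighbours of Ank were Gm6576, at 14.9 ± 0.653 CPM in dKO and 7.74 ± 1.05 CPM in WT, and Otulin, a deubiquitinase gene, at 26.6 ± 3.58 CPM in dKO and 29.9 ± 4.04 CPM in WT. Gm6576 rose by 0.94 ± 0.15 on the log2 scale (edgeR adjusted p = 0.000654), and Otulin was not called (edgeR adjusted p = 0.339). Of 4 tested genes starting within 1 Mb of Ank, none was called lower and 2 were called higher. The second gene called higher was Dnah5, named after its values were seen. Over all tested genes 28.7% were called lower and 28.6% higher, and 4 genes are too few to set this stretch apart from those shares. Enpp1 lies 39230 bases from Ccn2, a YAP/TAZ target that encodes a matricellular protein. Ccn2 stood at 378 ± 17.5 CPM in dKO and 19.8 ± 1.02 CPM in WT (log2 fold change 4.26 ± 0.08, edgeR adjusted p = 8.96e-09), while Enpp1 had 0 counts in dKO. On its other side is Med23, a Mediator subunit gene, which was not called (edgeR adjusted p = 0.193), and Enpp3 with no counts lies between them.

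On the higher-coordinate side of Nt5e lay a run of genes called lower, but such a side was not particular to Nt5e. Of 21 tested genes starting there within 1 Mb, 15 were called lower (71.4%) and 2 higher. Over all tested genes 28.7% were called lower. On the lower-coordinate side of Adora2b, named after its values were seen, 10 of 13 were called lower (76.9%) and 1 higher. The nearest tested neighbours of Nt5e were Gm28231, which was not called (edgeR adjusted p = 0.62), and Snx14, a sorting nexin gene, which rose slightly, at 63.3 ± 1.36 CPM in dKO and 52.0 ± 2.30 CPM in WT (log2 fold change 0.28 ± 0.08, edgeR adjusted p = 0.0106). Farther along, 16 tested genes start between 220.8 kb (Zfp949) and 883.5 kb (Mthfs) from Nt5e, and 14 of them were called lower and none higher. In 7 of the 16 every dKO library was at or under the 12-count floor. These genes passed the count filter through WT and could only be called lower. Of the other 9, 7 were called lower. Among them, Trim43a (5, 16 and 10 counts in dKO 1, dKO 2 and dKO 3) and Trim43c (37, 6 and 10 counts) also passed the filter through WT alone. The groups of 9430037G07Rik, likewise called lower, overlapped. Zfp949, a zinc finger gene, was at 10.2 ± 0.824 CPM in dKO and 21.9 ± 1.41 CPM in WT, and Mthfs, a folate enzyme gene, at 2.63 ± 0.776 CPM in dKO and 9.07 ± 0.268 CPM in WT. Between Nt5e and this stretch, Syncrip, an RNA-binding protein gene, was at 280.0 ± 13.7 CPM in dKO and 326 ± 34.4 CPM in WT and was not called (edgeR adjusted p = 0.0581). Also between them, Gm28229 was 4.26-fold lower (edgeR adjusted p = 0.00147) and Gm10163 1.30-fold higher (edgeR adjusted p = 0.00207), and Snhg5 was not called (edgeR adjusted p = 0.144). These 4 genes and the stretch were named after their values were seen. In the stretch, 10 of the 16 genes reached a mean of 1 CPM in WT, and there are similarly named genes (Trim43a, Trim43b and Trim43c, and Mthfs and Mthfsl) whose reads may be split between them.

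**Figure D3:**
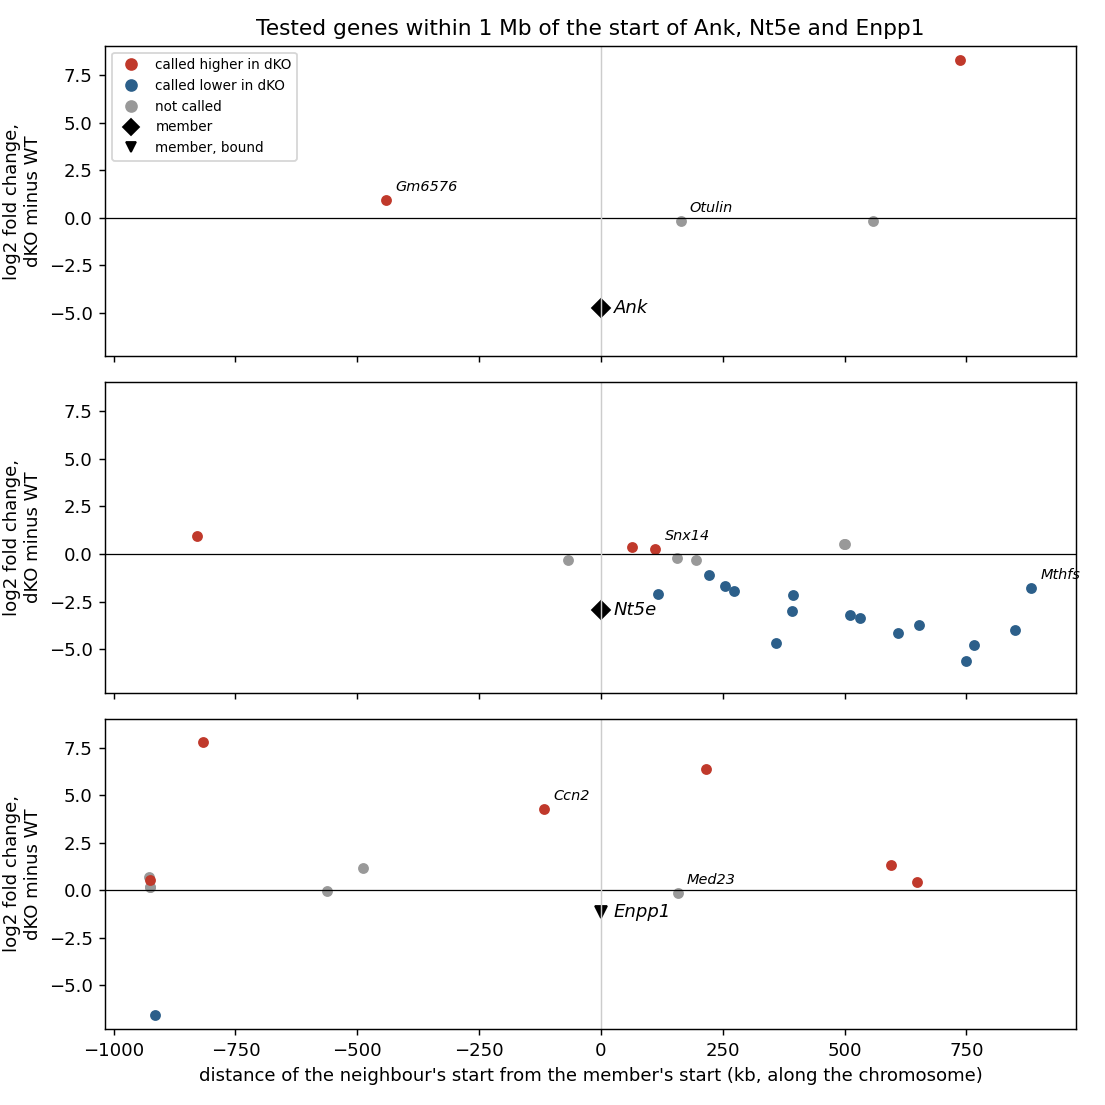
Fitted log2 fold change, dKO minus WT, of tested genes whose start lies within 1 Mb of the start of Ank, Nt5e or Enpp1, against the distance along the chromosome in kb; black marks are the member genes, with Enpp1 at its bound. None of the 4 neighbours of Ank was called lower, against 28.7% of all tested genes. Of the 16 genes from Zfp949 to Mthfs beside Nt5e, 14 were called lower, and 7 of the 16 had every dKO library at or under the floor. Ccn2 beside Enpp1 was called higher. Fitted values of genes at 0 in a group depend on the prior count.

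The wider pathway was followed in 8 lists with 61 genes besides the 9. Of these, 60 matched an identifier in the table, 37 were tested, 15 were called lower, 13 higher and 9 neither, and the median log2 value was -0.02. Of the 37, 4 had every dKO library and 1 every WT library at or under the floor. Setting genes with 0 counts at their bound changed the median of the ectonucleotidase list alone among the 8. The shares called lower and higher over all tested genes are 28.7% and 28.6%.

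Of 9 genes for the release of ATP, 6 were tested, of which 4 were called lower and 1 higher, with a median of -0.83. Panx1, a pannexin channel gene called lower and named after its values were seen, had 0, 4 and 9 counts in dKO libraries and 23, 58 and 68 counts in WT libraries, and it passed the count filter through WT alone. Panx3, which was called higher, passed it through dKO alone. Gja1, a connexin gene whose hemichannels can pass ATP, had 34.0, 32.5 and 44.8 CPM in dKO libraries against 311, 225 and 319 CPM in WT libraries, with no overlap (log2 fold change -2.94 ± 0.17, edgeR adjusted p = 2.79e-06). Lrrc8a, a subunit of volume-regulated anion channels, fell to 26.0 ± 1.27 CPM in dKO, against 39.6 ± 5.82 CPM in WT (-0.61 ± 0.12, edgeR adjusted p = 0.00243). Lrrc8a was not called against a 1.5-fold change (edgeR adjusted p = 0.444), and its exons overlap Gm28035 and 1700084E18Rik. Panx3, a related channel gene, had 80.6, 94.6 and 96.3 CPM in dKO libraries against 3, 0 and 0 counts in WT libraries. Taking those 3 counts as 1 read pair, at the assumed 4 counts per pair, it was 3089-fold higher, with a 95% counting interval, which rests on the same assumption, of 554 to 122050-fold (edgeR adjusted p = 3.28e-08), and its fitted log2 value was 11.83 with all libraries and 14.88 without WT 1.

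Of 9 other ectonucleotidase genes, 6 were tested, of which 4 were called lower and 2 higher, with a median of -3.22, or -2.07 with genes at 0 counts in dKO set at their bound. Enpp2 and Entpd8, among the 4, had 0 counts in dKO and passed the count filter through WT alone, so they could only be called lower. Cd38, also among the 4, had 37, 19 and 9 counts in dKO libraries, which alone would not have passed the filter. The largest level belonged to Bst1, which encodes a surface enzyme that acts on NAD, at 134, 136 and 148 CPM in dKO libraries and 1.95, 1.22 and 1.25 CPM in WT libraries. Bst1 was 94.6-fold higher (log2 fold change 6.55 ± 0.17, edgeR adjusted p = 3.01e-08), and its exons overlap Fbxl5 on the other strand. Cd38, a related NAD-cleaving enzyme gene, was lower, at 0.968, 0.467 and 0.209 CPM in dKO libraries and 11.3, 14.6 and 12.2 CPM in WT libraries (-4.55 ± 0.44, edgeR adjusted p = 3.32e-05). Without dKO 1 the value of Cd38 was -5.23. The 2 genes moved in opposite directions, and they lie near each other on chromosome 5, Bst1 at 43818885 to 43843986 and Cd38 at 43868553 to 43912375. Enpp2, the gene of autotaxin, which makes lysophosphatidic acid, had 0 counts in every dKO library and 2.55, 4.64 and 1.70 CPM in WT libraries, at least 10.02-fold lower (edgeR adjusted p = 0.000145). Entpd3, a nucleotide-cleaving enzyme gene named after its values were seen, rose to 14.4 ± 3.67 CPM in dKO, against 7.68 ± 1.64 CPM in WT (0.91 ± 0.23, edgeR adjusted p = 0.00806). Per length, Entpd3 was at 3.85 CPM per kb in dKO and 2.05 CPM per kb in WT, above the other 3 ENTPD genes of the surface, Entpd1, Entpd2 and Entpd8, in both groups. Entpd8, also named after its values were seen, had 0 counts in every dKO library and was at least 4.76-fold lower (edgeR adjusted p = 0.000256), and its exons overlap Noxa1.

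Genes that move adenosine across the membrane or use it were split, with 3 of 4 tested members higher and 1 lower, and a median of 1.06. Slc29a1, the gene of the equilibrative nucleoside transporter ENT1, had 34.2, 35.4 and 44.7 CPM in dKO libraries against 345, 267 and 343 CPM in WT libraries. It was 8.36-fold lower, with no overlap (log2 fold change -3.06 ± 0.14, edgeR adjusted p = 4.39e-07), and its exons overlap Gm17080 on the other strand. Slc29a2, the related transporter ENT2, rose to 23.6 ± 3.56 CPM in dKO, against 11.2 ± 1.11 CPM in WT (1.07 ± 0.15, edgeR adjusted p = 0.00029). Adk, the gene of adenosine kinase, which turns adenosine back to AMP inside the cell, rose to 82.1 ± 3.55 CPM in dKO, against 35.0 ± 5.46 CPM in WT (1.23 ± 0.12, edgeR adjusted p = 2.57e-05). Ada, adenosine deaminase, named after its values were seen, was 2.08-fold higher (edgeR adjusted p = 0.000977). Per length, Slc29a1 was at 79.5 CPM per kb and Slc29a2 at 3.71 CPM per kb in WT, while in dKO they were at 9.51 and 7.80 CPM per kb.

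Receptors for extracellular nucleotides rose where they were called. Of the P2X ion channel genes, 3 of 5 tested members were higher and none lower, and of the P2Y receptor genes 2 of 3 were higher and none lower, with medians of 1.07 and 2.00. P2rx3, among the 3, had 18, 6 and 4 counts in WT libraries and passed the count filter through dKO alone, so it could only be called higher. P2rx1, named after its values were seen, was not tested, with 0, 0 and 7 counts in dKO libraries and 4, 55 and 18 in WT libraries. P2rx7, the gene of the channel that opens at high ATP, had 6.22, 5.35 and 13.7 CPM in dKO libraries against 0.831, 0.521 and 0.970 CPM in WT libraries (log2 fold change 3.44 ± 0.43, edgeR adjusted p = 0.00016). P2rx3, a channel gene known from sensory neurons, had 2.48, 2.77 and 10.9 CPM in dKO libraries against 0.365, 0.149 and 0.0862 CPM in WT libraries (4.71 ± 0.78, edgeR adjusted p = 0.000963). For both genes dKO 3 was far above dKO 1 and dKO 2. The value of P2rx3 was 3.68 without dKO 3 and 5.50 without WT 1, and without WT 2 and dKO 3 together the values were 3.52 for P2rx3 and 2.68 for P2rx7. Exons of P2rx3 overlap Ssrp1 on the other strand and those of P2rx7 the microRNA gene Mir8115, so reads may be shared there. P2rx4, a broadly expressed channel gene, rose to 25.0 ± 1.74 CPM in dKO, against 16.3 ± 0.604 CPM in WT (0.62 ± 0.11, edgeR adjusted p = 0.00115), and was not called against a 1.5-fold change (edgeR adjusted p = 0.387).

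P2ry2, a receptor gene for ATP and UTP, had 20.1, 18.1 and 30.5 CPM in dKO libraries against 5.69, 5.78 and 5.69 CPM in WT libraries, a log2 difference of 2.00 ± 0.20 (edgeR adjusted p = 4.32e-05). P2ry14, a receptor gene for UDP-sugars, had 6.62, 4.74 and 0.628 CPM in dKO libraries against 0.547, 1.14 and 0.366 CPM in WT libraries. Its groups overlapped because of dKO 3, and its call (2.55 ± 0.80, edgeR adjusted p = 0.0255) was lost when WT 1, WT 3, dKO 1 or dKO 2 was left out (edgeR adjusted p = 0.0862, 0.0837, 0.0827 and 0.0626). Over all alternatives the adjusted p of P2ry14 ran from 1.51e-05, without WT 2 and dKO 3, where its value was 3.62, to 0.132 by limma voom.

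**Figure D4:**
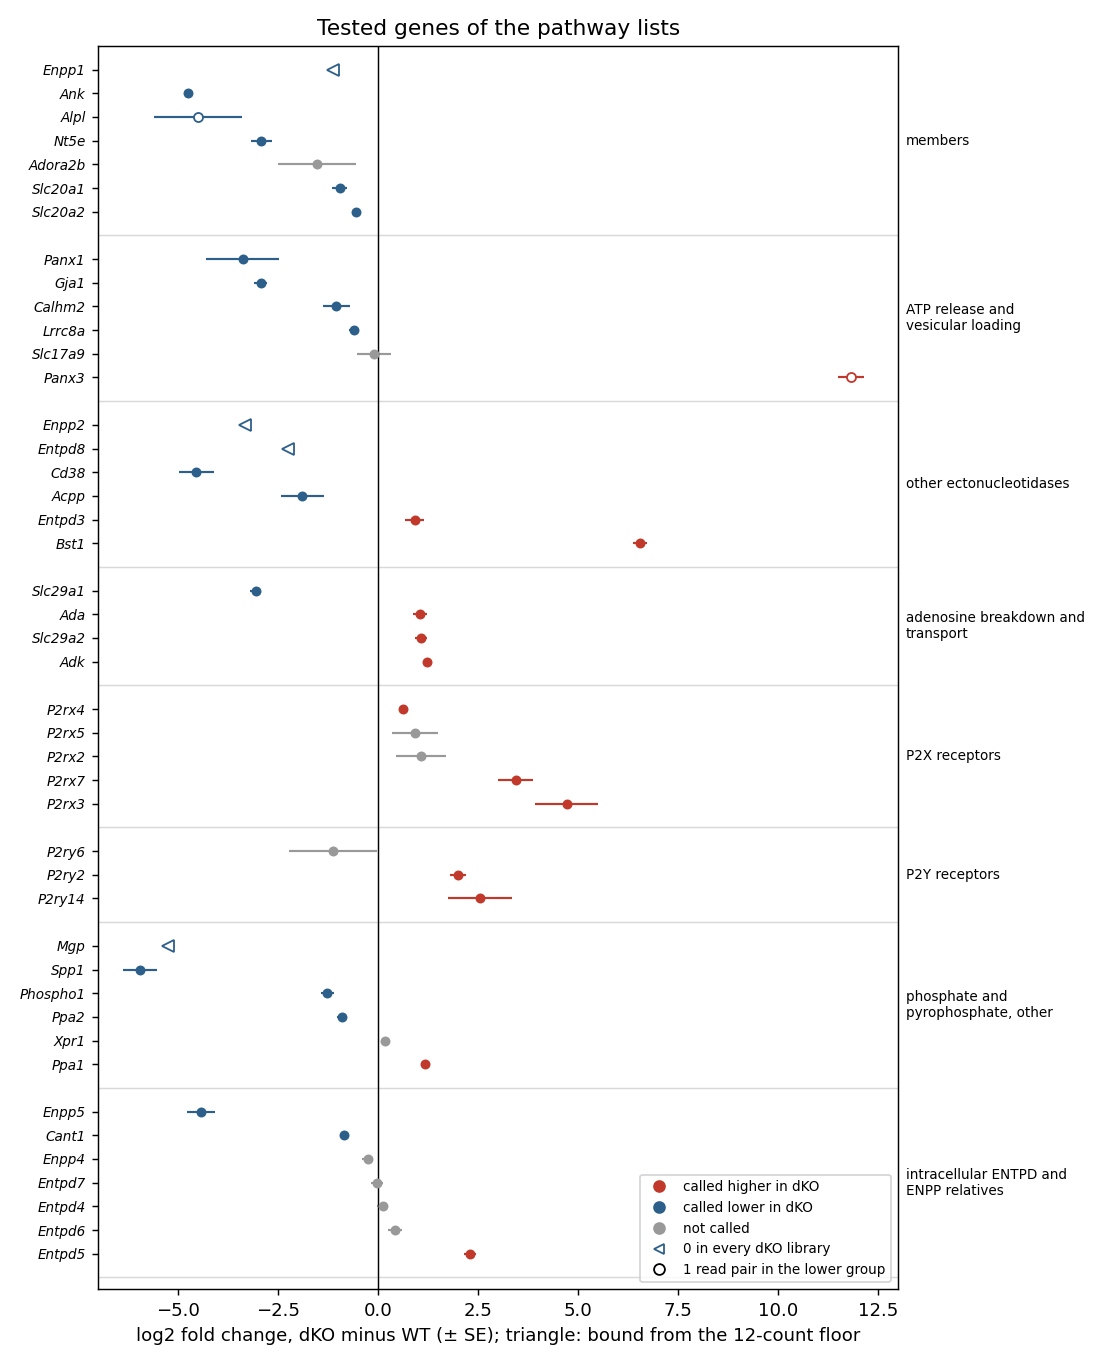
Log2 fold change, dKO minus WT, ± SE of the tested genes of each list, with genes called higher in dKO in red, called lower in blue and not called in grey; triangles are bounds for genes with 0 counts in every dKO library, and open circles are fitted values that rest on 3 or 4 counts in the lower group, taken as 1 read pair. No called P2X or P2Y receptor gene is lower, and in the ATP release list Panx3 is the gene that is higher.

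Of 9 other phosphate and pyrophosphate genes, 6 were tested, of which 4 were called lower and 1 higher, with a median of -1.09, and Mgp, among the 4, passed the count filter through WT alone. Spp1, the gene of osteopontin, a secreted phosphoprotein that binds calcium phosphate, had 55.7, 56.7 and 22.4 CPM in dKO libraries against 2681, 2858 and 2872 CPM in WT libraries. It was 62.4-fold lower, with no overlap (log2 fold change -5.96 ± 0.42, edgeR adjusted p = 6.87e-05), and its exons overlap Gm42793. Mgp, the gene of matrix Gla protein, an inhibitor of calcification, had 0 counts in every dKO library and 10.5, 10.7 and 12.9 CPM in WT libraries, at least 38.5-fold lower (edgeR adjusted p = 2.14e-06). Ppa1, the cytosolic pyrophosphatase gene, rose to 78.3 ± 3.92 CPM in dKO, against 34.6 ± 2.46 CPM in WT (1.18 ± 0.09, edgeR adjusted p = 6.31e-06). Ppa2, its mitochondrial counterpart, and Phospho1, a phosphatase gene of mineralizing cells, both named after their values were seen, had log2 fold changes of -0.91 ± 0.11 and -1.27 ± 0.17 (edgeR adjusted p = 0.000113 and 0.000209). Exons of Phospho1 overlap Abi3 and Zfp652. Xpr1, the phosphate exporter gene, was at 63.3 CPM in dKO and 56.0 CPM in WT and was not called (edgeR adjusted p = 0.0856). It too is named after its values were seen.

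Of the intracellular and other relatives of the ENTPD and ENPP families, 7 were tested, of which 1 was higher, 2 were lower and 4 were not called, with a median of -0.02. Entpd5, the gene of a nucleotidase of the endoplasmic reticulum, rose to 21.1 ± 2.22 CPM in dKO, against 4.29 ± 0.266 CPM in WT (2.30 ± 0.15, edgeR adjusted p = 2.39e-06). Enpp5, a little-studied ENPP family gene, fell to 1.29 ± 0.724 CPM in dKO, against 27.9 ± 1.16 CPM in WT (-4.43 ± 0.35, edgeR adjusted p = 1.09e-05). Cant1, a calcium-activated nucleotidase gene, fell to 55.5 ± 3.47 CPM in dKO, against 100.5 ± 5.23 CPM in WT (-0.86 ± 0.08, edgeR adjusted p = 2.7e-05).

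The genes whose log2 CPM over the 6 libraries was most like that of Ank were Hmga1b, Slfn2 and Prnd. Those most like Nt5e were Abl1, Slc25a24 and Sestd1, each of these genes with a Pearson r over 0.99. Slfn2 and Prnd had 0 counts in every dKO library and passed the count filter through WT alone. Their dKO values on the log2 scale are thus set by the prior count, and Prnd had only 67, 67 and 59 counts in WT libraries. The libraries form 2 separate groups, and 673 of the 15740 genes compared had such an r with Ank and 321 with Nt5e. The r between Ank and Nt5e was 0.97.

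Nt5e and Alpl are also made by fibroblasts and Entpd1 by leukocytes and endothelial cells, so markers of those cells were read in the same libraries. Over all tested genes, 28.7% were called lower and 28.6% higher. Of 10 fibroblast markers, 1 was called higher and 3 lower. Col1a2, called higher, had 28, 38 and 21 counts in dKO libraries and passed the count filter through dKO alone. Pi16, among the 3, had 0, 0 and 6 counts in dKO libraries and passed it through WT alone. The summed level of the 10 was 4.61 to 7.49 CPM in dKO libraries and 41.7 to 65.9 CPM in WT libraries. Lum, Dpt and Thy1 were at 0 in every library. Pdgfra alone was at 1.96 to 3.02 CPM in dKO libraries and 28.6 to 44.9 CPM in WT libraries. Of 10 leukocyte markers, 3 were called higher and none lower. Their summed level was 77.1 to 208.5 CPM in dKO libraries and 3.30 to 16.3 CPM in WT libraries, with Cd3e and Tyrobp at 0 in every library. Itgam, among the 3, had 0 counts in every WT library and passed the count filter through dKO alone, so it could only be called higher. Of the 10, 5 were at or under the floor in every library, and 3 were above it in every dKO library. Csf1r alone was at 62.7 to 189.5 CPM in dKO libraries and 1.01 to 14.2 CPM in WT libraries. Of 8 endothelial markers, 1 was called lower, Flt1. The summed level of the 8 was 3.23 to 6.14 CPM in dKO libraries and 21.7 to 25.9 CPM in WT libraries, with Kdr, Emcn and Cldn5 at 0 in every library. Flt1 alone was at 3.23 to 5.11 CPM in dKO libraries and 20.3 to 24.4 CPM in WT libraries, nearly the whole sum. Of the 8, 5 were at or under the floor in every library. The part of these markers in the results was not tested, and in bulk samples fewer cells of a type and less RNA per cell cannot be told apart.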

How the data were processed

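The authors deposited estimated counts per gene as whole numbers without normalization, in a table of the series and in a file per library, which were equal in all 6 libraries. GRCm38 (mm10), StringTie 2.2.1 and HISAT2 2.2.1 are named, per the submitters' processing notes. How reads were counted, with which annotation and whether by strand, is not given in the sources used here. Symbols, positions and exon lengths came from GENCODE M21 on that build, which matched 48144 of 48820 identifiers. The values needed no rounding. The test was edgeR 4.0.16 under R 4.3.3 (TMM, filterByExpr, robust quasi-likelihood F-test, genotype as the only term, Benjamini-Hochberg over 15807 genes, calls under 0.05). The procedure was run on simulated counts in which far fewer genes changed than were called here, so that check does not cover such data. Each SE was obtained as the absolute log2 value over the root of F. Lists and members were chosen with earlier results of these data known. Besides the 9 genes, the rule named Lats1 and Lats2, from each list the 3 called genes of lowest adjusted p, nearest neighbours, and the 3 genes most like Ank and Nt5e. Counting intervals and floors cover counting error only. DESeq2 1.42.0, limma voom 3.58.1, other scalings, filters and thresholds, counts divided by 4, a replicate block and left-out libraries were alternatives. Replicate numbers did not pair the libraries: deviations of same-numbered libraries correlated at -0.06 to 0.082. The gene Pnp of the lists was not analysed here.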

Additional observations from a re-analysis of the deposited data

How the results depend on the processing

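Over the alternatives, 6 of the 9 genes were called lower in all but 3: against a 1.5-fold change 5 were, and with counts divided by 4 or a filter of 1 CPM in 3 libraries 4 were, because Enpp1 and Alpl were then not tested. All genes called numbered 9060, ran from 8041 to 9120 with each library left out in turn, and reached 10139 when WT 2 and dKO 3 were both dropped. The test against 1.5-fold, built to need a larger difference, called 4556. Called members of the wider lists ran from 12 to 14 higher and 13 to 16 lower with each library left out. With the replicate block, 8658 of all genes, 6 of the 9 genes, and 14 higher and 15 lower list members were called. Of 27 tested genes followed through 18 alternatives, 23 kept their direction and call in each alternative that tested them, and no sign changed. The others were Slc20a2, Lrrc8a and P2rx4, lost against a 1.5-fold change, and P2ry14. Depth limits Enpp1, Alpl, Adora2b and Entpd1, whose levels are at or not far above the 12-count floor.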

Other observations

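Genes of mineralized tissue, read as a list of bone and mineralizing cell markers, were partly expressed in these cells. Dmp1, the gene of a matrix phosphoprotein of bone and tooth, had 0 counts in every dKO library and 19.5, 12.4 and 19.6 CPM in WT libraries, at least 58.0-fold lower (edgeR adjusted p = 3.07e-06). It passed the count filter through WT alone, so it could only be called lower. Runx2, a transcription factor gene of osteoblasts, fell, with 21.1, 20.3 and 23.2 CPM in dKO libraries against 78.9, 90.3 and 79.4 CPM in WT libraries (log2 fold change -1.94 ± 0.10, edgeR adjusted p = 6.43e-07). Phex, the gene of a peptidase that acts on bone matrix peptides, was higher, with 60.4, 56.4 and 18.0 CPM in dKO libraries against 10.01, 14.8 and 9.91 CPM in WT libraries (1.96 ± 0.47, edgeR adjusted p = 0.0129), and dKO 3 lay nearest to WT. Of the 6 markers, Sp7 was at 0 in every library, Bglap was under the floor and Ibsp was not tested.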
